A study of Mus musculus with 20 samples.

Results

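In the mouse retina at postnatal day 21 (P21), 30 genes met a rule that asked for a loss of transcript when the photoreceptor factor Crx was missing or altered and for a preserved level when the rod factor Nrl was missing. The rule used the means of 2 samples and required at least 5 FPKM in wild type, at most 0.5 times wild type in both Crx-/- and CrxRip/Rip, and at least 0.8 and under 2 times wild type in Nrl-/-. The table of this age held 1497 genes, and 32 of them met these limits. Guca1a, an activator of guanylate cyclase, and Mpp4, a scaffold of the photoreceptor synapse, were then set aside by symbol, under a list of symbols that the rule drops. The members were thus chosen by the P21 FPKM of these 4 genotypes, and the levels in wild type, CrxRip/Rip, Crx-/- and Nrl-/- at P21 are given as a description without a test.

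Crx is a homeodomain transcription factor of rods, cones and, at a lower level, bipolar cells, and it switches on many genes of both photoreceptor types. Nrl is a leucine zipper factor of rods, which works with Crx on rod genes. Without Nrl the precursors that would become rods take a cone-like fate, so the Nrl-/- retina keeps photoreceptors but lacks rods.

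RNA of whole retina was sequenced at postnatal days 2 (P2) and 21 from mice on the C57BL/6J strain. The 5 genotypes were wild type, CrxRip/+ and CrxRip/Rip, which carry 1 or 2 copies of a dominant Crx allele, Crx-/- and Nrl-/-, with no further allele or treatment in the labels. Each genotype and age had 2 samples, and each sample pooled 2 retinas, so p-values measure the spread between such pools. Values are FPKM (mapped fragments scaled for transcript length and library size), so the depth behind each value is unknown.

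The tables (1497 genes at P21, 566 at P2) hold only genes past the authors' threshold in 1 or more comparisons, so shares of called genes are shares among selected genes. Nrl, which checks the Nrl-/- label, was at 0.2 FPKM in both Nrl-/- samples, against 447 ± 27.2 (SD, n = 2) in wild type. Crx transcript still measured 169.7 ± 2.47 FPKM in Crx-/-, where wild type had 347 ± 4.81, and such a whole-transcript value checks neither Crx mutation. The Nrl transcript was nearly gone as well in CrxRip/+ (0.65 ± 0.35 FPKM) and CrxRip/Rip (0.15 ± 0.07), and it was at 84.6 ± 3.68 in Crx-/-.

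By role the members fell into 5 signalling enzymes and regulators, 5 membrane, adhesion and polarity genes, 4 genes of energy metabolism and mitochondria, 4 of cytoskeleton and transport, 2 transcripts of 1 ligand locus, 3 nuclear or nucleotide genes, and 7 less described genes. Their wild-type level ran from 5 FPKM (5430419D17Rik, named Cdcp3 in RefSeq) to 240.2 FPKM (Hmgn1), with a median of 20.2. In CrxRip/Rip the members were at 8.28 to 48.9% of wild type (median 32.4%), in Crx-/- at 18.9 to 49.9% (median 36.0%) and in Nrl-/- at 80.3 to 196% (median 89.1%). Abhd14a, Zdhhc12, Sarm1, Serinc4, Ckmt1 and 1190005I06Rik overlap another protein-coding RefSeq gene, and Krt18 and Hmgn1 have processed pseudogenes, so their values are less certain. In whole retina, fewer cells of a type and less RNA per cell cannot be told apart.

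**Figure D1:**
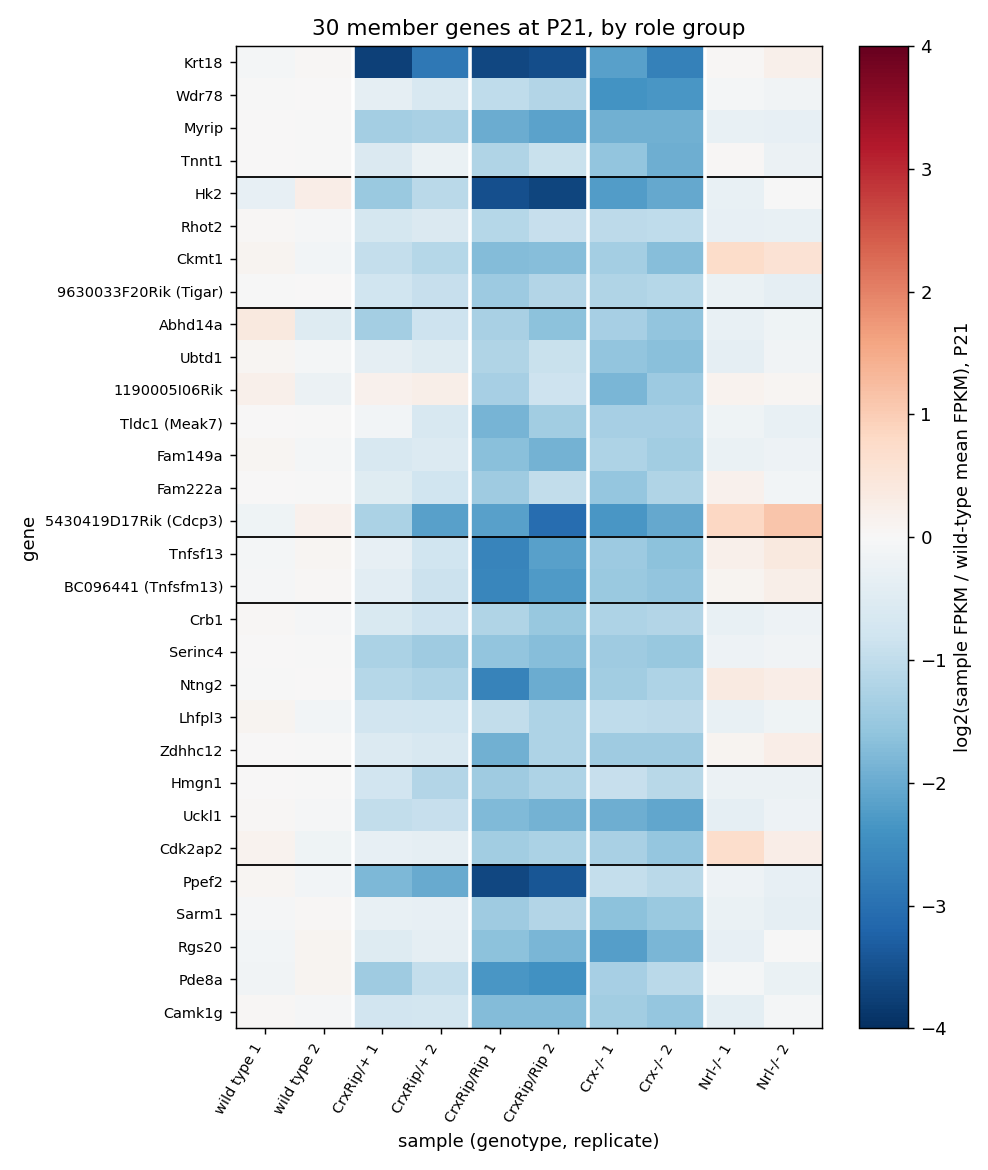
Heat map of the 30 genes (rows, separated into role groups by black lines) in the 10 P21 samples (columns), coloured by log2 of sample FPKM over the wild-type mean, with the scale clipped at -4 and 4. CrxRip/Rip and Crx-/- columns are blue by the rule, CrxRip/+ columns are mostly paler blue, and Krt18 is dark in all 3 genotypes.

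The promoters were read for letters that the deleted factors are known to bind. RefSeq windows of GRCm38.p6, from 250 bases before to 50 after the start of transcription, were found for 27 of the 30 genes, 29 windows in all. TAATCC (or GGATTA, its reverse complement), the core bound by Crx and its relative Otx2, was present in 4 of the 29 member windows (13.8%), against 7.06% of all 32851 promoter windows and 9.0% of the 1533 windows of genes in the P21 table. TGCTGA (or TCAGCA), part of the element bound by Nrl, was present in 7 member windows (24.1%), against 19.5% of all windows and 18.1% of those of the P21 table. No match of one motif overlapped a match of the other. These letter matches are a description and not binding sites.

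The 4 windows with the Crx letters are shown because they include Serinc4, which holds the letters at 2 places, and Ppef2, the most abundant of the signalling members. Capitals mark TAATCC or GGATTA, and each sequence runs 5′ to 3′ along its gene.
Ppef2, chr5:92256229-92256528, minus strand: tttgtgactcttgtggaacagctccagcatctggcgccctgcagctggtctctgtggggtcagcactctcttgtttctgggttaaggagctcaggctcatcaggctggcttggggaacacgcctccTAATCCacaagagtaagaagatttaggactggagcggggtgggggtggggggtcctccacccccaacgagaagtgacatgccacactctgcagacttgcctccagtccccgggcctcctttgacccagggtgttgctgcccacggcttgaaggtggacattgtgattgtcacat
Serinc4, chr2:121456715-121457014, minus strand: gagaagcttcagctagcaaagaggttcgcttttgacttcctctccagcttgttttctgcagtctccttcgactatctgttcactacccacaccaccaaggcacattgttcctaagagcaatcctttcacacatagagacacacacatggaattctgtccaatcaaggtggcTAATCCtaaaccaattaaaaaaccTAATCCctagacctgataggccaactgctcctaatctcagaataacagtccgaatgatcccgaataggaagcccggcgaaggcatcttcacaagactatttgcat
Camk1g, chr1:193370233-193370532, minus strand: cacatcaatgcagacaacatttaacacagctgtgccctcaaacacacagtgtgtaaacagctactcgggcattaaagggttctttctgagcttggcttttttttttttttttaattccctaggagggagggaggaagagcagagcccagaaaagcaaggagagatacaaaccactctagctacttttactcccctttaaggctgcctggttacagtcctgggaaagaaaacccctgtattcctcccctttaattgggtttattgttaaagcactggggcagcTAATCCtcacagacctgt
Fam149a, chr8:45382242-45382541, minus strand: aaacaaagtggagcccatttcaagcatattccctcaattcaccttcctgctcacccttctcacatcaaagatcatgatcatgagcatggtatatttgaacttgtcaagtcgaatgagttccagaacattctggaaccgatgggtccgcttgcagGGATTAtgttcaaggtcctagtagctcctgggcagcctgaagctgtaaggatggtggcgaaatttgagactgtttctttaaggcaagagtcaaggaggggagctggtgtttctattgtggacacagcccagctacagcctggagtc
The letters began 124 bases before the start in Ppef2, 79 and 55 bases before it in Serinc4, and 96 bases before it in Fam149a, where they are on the opposite strand. In Camk1g they began at base 33 after the start.

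CrxRip/+ is the genotype that the rule did not use, and its comparison with wild type at P21 asks whether 1 copy of the dominant allele lowers the same genes. It did for most of them: 26 of 30 fell, 0 rose and 4 were not called. Calls required an adjusted p under 0.05 in limma, with Benjamini-Hochberg adjustment across all 1497 genes, and by this measure 35.0% of the table was lower and 39.5% higher. Each change is on the log2(FPKM + 1) scale, so that of a low gene is understated. Both CrxRip/+ samples lay below both wild-type samples in 29 members (40.4% of the table) and above them in 0 (46.6% of the table). The median change of the members was -0.66, against 0.13 for all genes of the table. The wild-type samples of this comparison had also entered the rule, so it is not fully independent of the choice of genes. Rescaling by the median of ratios moved the median of all genes from 0.13 to 0.01, and 29 members were then lower. The rescaling factors were computed from the genes of this table, so the shift of the median is largely set by the method.

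The mean in CrxRip/+ was above that in CrxRip/Rip in all 30 members. The members were at 10.6 to 115% of wild type in CrxRip/+ (median 60.2%), 10 of them at most at 0.5 times wild type and 2 at 0.8 times or more. Both CrxRip/+ samples lay above both CrxRip/Rip samples in 27 of 30 members, as they did in 50.4% of all genes of the table, and above both Crx-/- samples in 22, as in 41.3% of the table. They lay below both Crx-/- samples in 2 members, Krt18 and Ppef2, and in 32.1% of the table. As the rule had set CrxRip/Rip and Crx-/- low, these counts are a description.

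**Figure D2:**
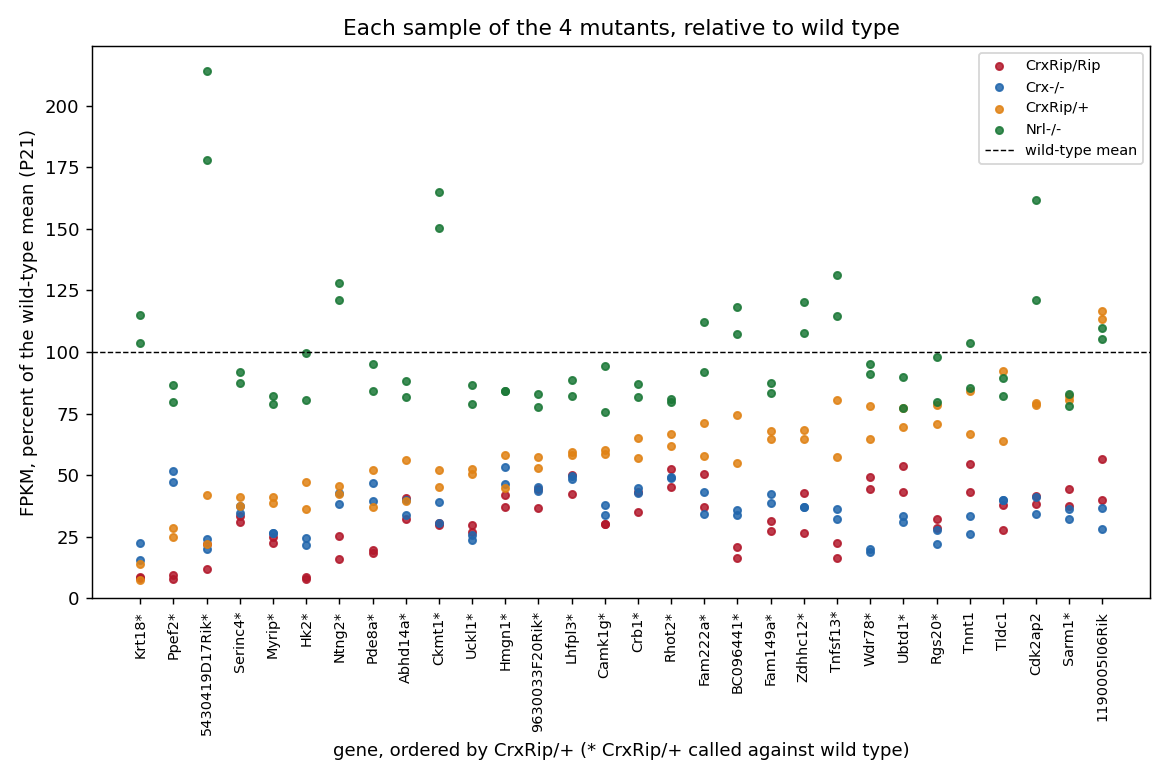
FPKM of each mutant sample as a percent of the wild-type mean at P21 (y axis, linear) for the 30 genes (x axis, ordered by the CrxRip/+ mean), with 2 points per genotype and an asterisk for genes called in CrxRip/+ against wild type. CrxRip/+ runs from 10.6% for Krt18 to 115% for 1190005I06Rik, while the Nrl-/- means stay at or above 80.3%.

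Energy and mitochondrial genes fell in 4 of 4 in CrxRip/+. Hk2 encodes hexokinase 2, which starts glycolysis and is the hexokinase that photoreceptors use for aerobic glycolysis. It was at 47.9 and 71.7 FPKM in wild type, 21.6 and 28.2 in CrxRip/+, 5.2 and 4.7 in CrxRip/Rip, 12.8 and 14.5 in Crx-/-, and 48.2 and 59.6 in Nrl-/-. The wild-type and Nrl-/- samples overlapped, and each of the other genotypes lay below both. The change in CrxRip/+ was -1.21 ± 0.20 (SE, adjusted p = 8.17e-04, limma).

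Ckmt1, the mitochondrial creatine kinase that passes energy from mitochondria to the cytosol, was at 53.3 and 45.8 FPKM in wild type, 25.8 and 22.4 in CrxRip/+, 14.8 and 15.2 in CrxRip/Rip, and 19.3 and 15.1 in Crx-/-. In Nrl-/- it was at 81.7 and 74.6, above both wild-type samples. Rhot2, a mitochondrial GTPase (Miro2) of organelle transport, was at similar levels in CrxRip/Rip and Crx-/-, with 53.6 and 50.5 FPKM in wild type, 32.2 and 34.8 in CrxRip/+, 23.5 and 27.4 in CrxRip/Rip, 25.3 and 25.6 in Crx-/- and 41.5 and 42.1 in Nrl-/-. Ckmt1 changed by -1.01 and Rhot2 by -0.62 in CrxRip/+ (adjusted p = 2.12e-04 and 4.38e-04, limma). 9630033F20Rik, named Tigar in RefSeq and known as a phosphatase that slows glycolysis, fell by 0.77, from a mean of 11.7 FPKM in wild type to 6.45.

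The other energy genes on a hand-written list of 32 give the context. The P21 table held 6 of them, the members Hk2 and Ckmt1 and 4 others, of which 2 were lower and 2 higher in CrxRip/+. Hk1, the other main hexokinase, was at 131.3 and 134.4 FPKM in wild type and 77.8 and 88.1 in CrxRip/+ (-0.68), and its Nrl-/- samples were at 72.6 and 71.7 FPKM, below both wild-type samples. Ldha, which makes lactate, changed by -0.76 in CrxRip/+ and was at 400.2 and 422.8 FPKM in wild type, 240.5 and 206 in Crx-/-, 134.3 and 252 in CrxRip/Rip, and 368.7 and 344 in Nrl-/-. It missed the set by its Crx-/- level of 0.543 times wild type. Ckb, the cytosolic creatine kinase, and Glo1, which detoxifies methylglyoxal, rose in CrxRip/+ by 1.05 and 1.67.

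All 5 signalling members fell in CrxRip/+. Ppef2, a calcium-binding protein phosphatase of photoreceptors, was at 65.7 and 57.6 FPKM in wild type, 17.6 and 15.2 in CrxRip/+, 4.9 and 5.7 in CrxRip/Rip, 31.9 and 29.0 in Crx-/- and 53.5 and 49.0 in Nrl-/-. It was the member with the widest gap between the Crx genotypes, at 8.60% of wild type in CrxRip/Rip and 49.4% in Crx-/-. Its change in CrxRip/+ was -1.85 ± 0.12 (SE, adjusted p = 2.99e-06, limma), and both CrxRip/+ samples lay below both Crx-/- samples.

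Pde8a, a phosphodiesterase of cyclic AMP, was at 7.4 and 8.8 FPKM in wild type, 3.0 and 4.2 in CrxRip/+, 1.6 and 1.5 in CrxRip/Rip, 3.2 and 3.8 in Crx-/- and 7.7 and 6.8 in Nrl-/-. Camk1g, a calmodulin-dependent kinase, was at 5.5 and 5.1 FPKM in wild type, 3.1 and 3.2 in CrxRip/+, 1.6 and 1.6 in CrxRip/Rip, 2.0 and 1.8 in Crx-/- and 4.0 and 5.0 in Nrl-/-. They changed by -0.99 and -0.60 in CrxRip/+ (adjusted p = 4.27e-04 and 0.00127, limma).

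Rgs20, which speeds the inactivation of G proteins of the Gi class, and Sarm1, the NAD hydrolase that drives axon degeneration, kept more of their level in CrxRip/+. Rgs20 was at 18.7 and 21.5 FPKM in wild type, 14.2 and 15.8 in CrxRip/+, 6.5 and 5.7 in CrxRip/Rip, 4.4 and 5.6 in Crx-/- and 16 and 19.7 in Nrl-/-. Sarm1 was at 19.7 and 20.8 FPKM in wild type, 16.6 and 16.3 in CrxRip/+, 7.6 and 9.0 in CrxRip/Rip, 6.5 and 7.3 in Crx-/- and 16.8 and 15.8 in Nrl-/-. These were 2 of the weakest calls (adjusted p = 0.0342 and 0.0329, limma). The Sarm1 call was lost whichever of the 4 samples was left out (adjusted p up to 0.144), and that of Rgs20 without either wild-type sample or CrxRip/+ replicate 1 (adjusted p up to 0.182).

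The 5 membrane, adhesion and polarity genes fell in CrxRip/+ as well. Crb1, which holds photoreceptors and Müller glia together at the outer limiting membrane and is mutated in inherited blindness, was at 54.9 and 51.1 FPKM in wild type, 34.5 and 30.1 in CrxRip/+, 22.9 and 18.5 in CrxRip/Rip, 22.6 and 23.7 in Crx-/- and 43.3 and 46.2 in Nrl-/-. Each genotype lay below wild type without overlap, and Nrl-/- kept 84.4% of it. Ntng2, a netrin-related adhesion protein of synapses, was at 31.2 and 32.3 FPKM in wild type, 14.4 and 13.4 in CrxRip/+, 5.0 and 8.0 in CrxRip/Rip, 12.1 and 13.6 in Crx-/- and 40.6 and 38.4 in Nrl-/-. Here Nrl-/- lay above wild type and CrxRip/Rip below Crx-/-. Crb1 changed by -0.70 and Ntng2 by -1.14 in CrxRip/+ (adjusted p = 8.02e-04 and 4.12e-04, limma).

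Serinc4, of the serine incorporator family of membrane proteins, was at 34.4 and 34.1 FPKM in wild type, 14.1 and 12.8 in CrxRip/+, 11.4 and 10.6 in CrxRip/Rip, 12.8 and 11.9 in Crx-/- and 29.9 and 31.4 in Nrl-/-. The 3 Crx genotypes lay close together in this gene, and the change in CrxRip/+ was -1.29 ± 0.09 (SE, adjusted p = 4.25e-06, limma). Serinc4 and Ckmt1 lie 87.4 kilobases apart on chromosome 2. Lhfpl3, a tetraspan membrane protein, and Zdhhc12, a palmitoyltransferase, changed by -0.71 and -0.52. The Zdhhc12 call was lost without either wild-type sample or CrxRip/+ replicate 2 (adjusted p up to 0.0691).

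Among the cytoskeleton and transport genes 3 of 4 fell in CrxRip/+. Krt18, a keratin of simple epithelia, had the largest change of all members, -2.72 ± 0.20 (SE, adjusted p = 6.02e-06, limma). It was at 16.7 and 18.2 FPKM in wild type, 1.3 and 2.4 in CrxRip/+, 1.4 and 1.5 in CrxRip/Rip, 3.9 and 2.7 in Crx-/- and 18.1 and 20.1 in Nrl-/-. Wild type and Nrl-/- overlapped, and CrxRip/+ and CrxRip/Rip overlapped at 10.6% and 8.31% of wild type. Myrip, which links Rab27a vesicles to myosin motors, was at 12.6 and 12.2 FPKM in wild type, 4.8 and 5.1 in CrxRip/+, 3.1 and 2.8 in CrxRip/Rip, 3.3 and 3.3 in Crx-/- and 10.2 and 9.8 in Nrl-/-, a change of -1.17 in CrxRip/+.

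Wdr78, a subunit-like protein of axonemal dynein, and Tnnt1, the slow skeletal troponin T, had the reverse order of the Crx genotypes. Wdr78 was at 16.8 and 17 FPKM in wild type, 13.2 and 10.9 in CrxRip/+, 8.3 and 7.5 in CrxRip/Rip, 3.2 and 3.4 in Crx-/- and 16.1 and 15.4 in Nrl-/-. It was the single member whose Crx-/- mean was at most 0.5 times its CrxRip/Rip mean. Tnnt1 was at 8.2 and 8.0 FPKM in wild type, 5.4 and 6.8 in CrxRip/+, 3.5 and 4.4 in CrxRip/Rip, 2.7 and 2.1 in Crx-/- and 8.4 and 6.9 in Nrl-/-. Wdr78 fell by 0.46 in CrxRip/+ and Tnnt1 was not called (adjusted p = 0.00420 and 0.0585, limma).

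Both transcripts of the Tnfsf12 and Tnfsf13 locus on chromosome 11 were members. Tnfsf13 encodes the cytokine APRIL, and BC096441 (Tnfsfm13 in RefSeq) is a read-through transcript that contains it, so their reads may be shared and they count as 1 locus. Tnfsf13 was at 30.9 and 34.8 FPKM in wild type, 26.4 and 18.8 in CrxRip/+, 5.3 and 7.3 in CrxRip/Rip, 11.9 and 10.6 in Crx-/- and 37.6 and 43.1 in Nrl-/-. BC096441 followed the same order with means of 29.6, 19.2, 5.5, 10.3 and 33.4 FPKM. CrxRip/Rip was lowest and Nrl-/- highest in both. They changed by -0.54 and -0.62 in CrxRip/+ (adjusted p = 0.0276 and 0.00634, limma), and the Tnfsf13 call was lost without either wild-type sample or CrxRip/+ replicate 2 (adjusted p up to 0.174) and with only the 2 genotypes fitted (adjusted p = 0.0745).

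Of the 3 nuclear and nucleotide genes, Hmgn1 and Uckl1 fell in CrxRip/+. Hmgn1, a nucleosome-binding protein with many processed pseudogenes, was at 242.5 and 237.9 FPKM in wild type, 140.1 and 107.4 in CrxRip/+, 89.1 and 101.1 in CrxRip/Rip, 128.1 and 111.5 in Crx-/- and 202.0 and 202.6 in Nrl-/-. Uckl1, a relative of the uridine-cytidine kinases, was at 76.4 and 70.7 FPKM in wild type, 37 and 38.5 in CrxRip/+, 21.8 and 19.9 in CrxRip/Rip, 18.8 and 17.5 in Crx-/- and 57.9 and 63.6 in Nrl-/-. They changed by -0.96 and -0.94. Cdk2ap2, a partner of the cell-cycle kinase Cdk2, was not called (48.1 and 38.5 FPKM in wild type, 34.3 and 34.0 in CrxRip/+, adjusted p = 0.0970, limma) and was at 70.0 and 52.5 FPKM in Nrl-/-.

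Of the 7 less described genes 5 fell in CrxRip/+ and 2 were not called. 1190005I06Rik was the member best preserved there, at 21.3 and 15.9 FPKM in wild type, 21.1 and 21.7 in CrxRip/+, 7.4 and 10.5 in CrxRip/Rip, 5.2 and 6.8 in Crx-/- and 20.4 and 19.6 in Nrl-/-. Its CrxRip/+ and its Nrl-/- samples each overlapped wild type in range, with a change of 0.21 ± 0.19 (SE, adjusted p = 0.338, limma) in CrxRip/+. 5430419D17Rik was at 4.4 and 5.6 FPKM in wild type, 2.1 and 1.1 in CrxRip/+, 1.1 and 0.6 in CrxRip/Rip, 1.0 and 1.2 in Crx-/- and 8.9 and 10.7 in Nrl-/-, and its Nrl-/- level was the highest relative to wild type of any member.

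Abhd14a, of the alpha/beta hydrolase family, had wild-type samples that differed from each other, at 36.9 and 20 FPKM, against 11.2 and 16 in CrxRip/+. Its call (-0.97, adjusted p = 0.0113, limma) was lost without wild-type replicate 1 (adjusted p = 0.0723), without CrxRip/+ replicate 1 (0.0717) and with only the 2 genotypes fitted (0.0845). Fam149a, Fam222a and Ubtd1 changed by -0.55, -0.57 and -0.43. The Fam222a call was lost without either wild-type sample or CrxRip/+ replicate 2 (adjusted p up to 0.0790), and that of Ubtd1 without wild-type replicate 1 or CrxRip/+ replicate 2 (adjusted p up to 0.0939). Tldc1, named Meak7 in RefSeq, was at 17.9 and 17.6 FPKM in wild type and 16.4 and 11.3 in CrxRip/+ and was not called (-0.36, adjusted p = 0.0949, limma).

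The members differed in which Crx genotype had the lower level. CrxRip/Rip lay below Crx-/- with both samples in 13 of 30 members and above it in 7, shares of 43.3% and 23.3% that stand beside 45.8% and 28.8% of all genes in the table. The ratio of the CrxRip/Rip to the Crx-/- mean ran from 0.174 (Ppef2) over a median of 0.894 to 2.39 (Wdr78). It was at most 0.5 in Ppef2, Hk2 (0.363), Krt18 (0.439) and Pde8a (0.443). At the other end were Tnnt1 (1.65), Ubtd1 (1.51) and 1190005I06Rik (1.49).

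**Figure D3:**
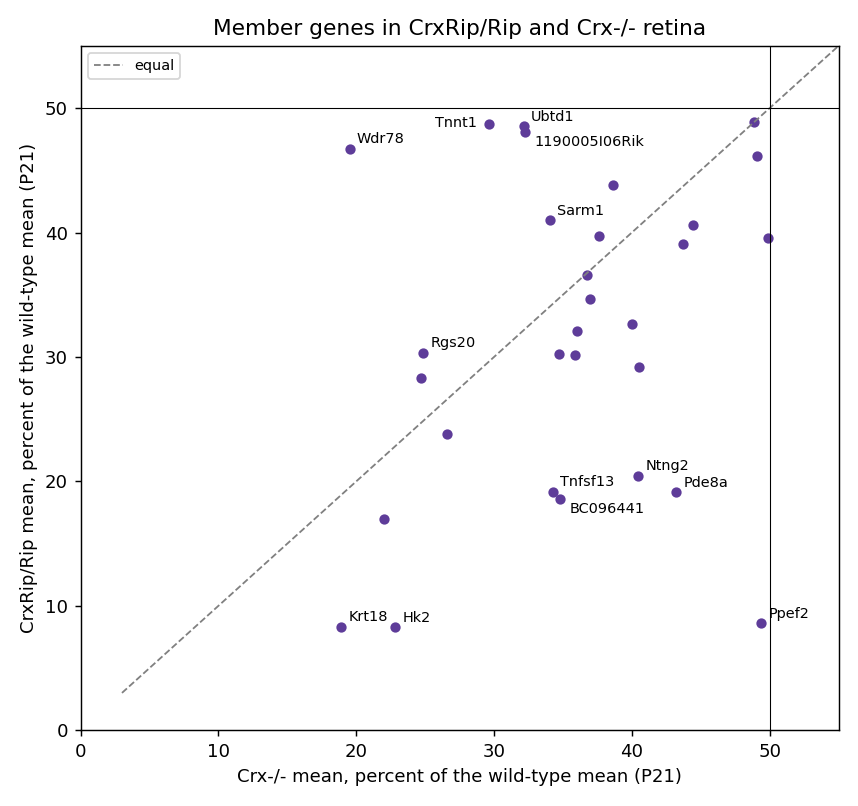
Mean level in CrxRip/Rip (y axis) against Crx-/- (x axis), both as a percent of the wild-type mean at P21, 1 point per gene, with the line of equal levels dashed and the 50% limits of the rule solid. Ppef2 and Hk2 lie far below the dashed line and Wdr78 lies highest above it relative to its Crx-/- level.

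In Nrl-/- the members were not all unchanged. Of the 30, 10 had a mean above wild type and 20 at or below it, and both samples lay below both wild-type samples in 15 members (38.7% of all genes of the table) and above them in 7 (50.8% of the table). In the authors' deposited table, which is scaled differently from FPKM, 13 members had a lower level in Nrl-/- at an adjusted p under 0.05, 3 a higher one and 14 neither. After rescaling FPKM by the median of ratios, 19 of the 30 fell under 0.8 times wild type in Nrl-/- (lowest 68.4%). In Crx-/- or CrxRip/Rip, 6 members were then above 0.5 times wild type, and 9 genes met the rule instead of 30. The 9 were 5430419D17Rik, BC096441, Cdk2ap2, Ckmt1, Fam222a, Krt18, Ntng2, Tnfsf13 and Zdhhc12. For most members, a preserved level in Nrl-/- thus holds on the FPKM scale and not after this rescaling. The rescaling factors were computed from this table of selected genes, so they need not hold for whole libraries. The authors' log2 change in Nrl-/- differed from that of the FPKM means by a median of -0.11 over 698 genes. By the authors' values the median change of the members in Nrl-/- was -0.28. The set is described here by its rule.

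Several genes stood near the limits. Just inside the Crx-/- limit were Hmgn1 at 0.499, Ppef2 at 0.494 and Lhfpl3 at 0.491 times wild type, and near it on the outer side were Gal3st3 (0.538) and Ldha (0.543). Rhot2 (0.489), Tnnt1 (0.488) and Ubtd1 (0.485) were just inside the CrxRip/Rip limit, and Guk1 (0.545), Tulp1 (0.546) and Ano2 (0.564) just outside. In Nrl-/- Rhot2 (0.803), 9630033F20Rik (0.803) and Sarm1 (0.805) were just above the lower limit, and Tob2 (0.7996), Drd4 (0.781) and Ccdc107 (0.779) just below it. Leaving out 1 of the 8 samples the rule used gave 22 to 30 genes, and asking every sample to pass gave 11.

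The P2 samples had no part in the rule, and 4 members, Hk2, Krt18, Ntng2 and Ppef2, were in the P2 table (566 genes). The other 26 were not analysed at P2. The 2 tables were scaled separately, so levels were not tested between ages. Photoreceptor differentiation has only begun at this age.

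In CrxRip/Rip at P2 all 4 were lower than wild type, where 21.2% of all genes were called lower and 5.83% higher. Krt18 and Ppef2 passed the authors' threshold in this same comparison (authors' log2 change -1.41 and -1.85). The 4 were thus listed for a change at P2 and do not stand for the set. Ppef2 was at 15.2 and 15.5 FPKM in wild type, 9.2 and 10.1 in CrxRip/+, 3.7 and 4.9 in CrxRip/Rip, 15.7 and 16.9 in Crx-/- and 17.3 and 13.5 in Nrl-/-. It changed by -1.63 ± 0.15 in CrxRip/Rip (SE, adjusted p = 4.96e-05, limma). Ntng2 was at 26.3 and 30.7 FPKM in wild type, 22.1 and 21.7 in CrxRip/+, 16.9 and 13.3 in CrxRip/Rip, 22.7 and 23.7 in Crx-/- and 28.8 and 33.6 in Nrl-/-. For both genes the samples of CrxRip/Rip lay below those of every other genotype.

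Krt18 was low at this age, at 2.7 and 3.1 FPKM in wild type, 1.4 and 2.3 in CrxRip/+, 0.9 and 1.3 in CrxRip/Rip, 3.1 and 3.5 in Crx-/- and 3.0 and 3.5 in Nrl-/-. It changed by -0.90 and Ntng2 by -0.88 in CrxRip/Rip (adjusted p = 0.00326 and 0.00150, limma). The Hk2 call in CrxRip/Rip (-0.36, adjusted p = 0.0399, limma) was lost without wild-type replicate 1 (0.249), without CrxRip/Rip replicate 2 (0.171), with only the 2 genotypes fitted (0.187), after rescaling (0.118) and in the authors' deposited table (adjusted p = 0.161).

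Hk2 had another order at P2 than at P21. It was at 4.9 and 3.9 FPKM in wild type, 4.1 and 3.6 in CrxRip/+, 3.4 and 3.0 in CrxRip/Rip, 2.8 and 2.8 in Crx-/- and 1.3 and 1.3 in Nrl-/-. Its lowest level was thus in Nrl-/-, the genotype in which it reached 90.1% of wild type at P21. The change in Nrl-/- was -1.23 ± 0.11 (SE, adjusted p = 2.85e-05, limma), and Hk2 was the 1 member of 4 called lower there, among 64.7% of all genes called lower and 18.9% higher. Hk2 also passed the authors' threshold here (authors' log2 change -1.6), so its call is not independent of its listing at P2. The median of all genes in this comparison was -0.76 and moved to -0.04 after rescaling. The factors were computed from these selected genes, so that shift is largely set by the method. After rescaling Hk2 stayed lower while Ppef2, Krt18 and Ntng2 were called higher (1.00, 0.96 and 1.16). Without rescaling these 3 were not called in Nrl-/- (-0.01, 0.12 and 0.13). The authors' deposited changes for the 3 were 0.19, 0.39 and 0.28, none at an adjusted p under 0.05.

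In Crx-/- at P2, Hk2 was the 1 of 4 called lower (-0.50 ± 0.11 SE, adjusted p = 0.0126, limma), where 20.7% of all genes were called lower and 9.19% higher. The call was lost without wild-type replicate 1 (adjusted p = 0.0653) and without either Crx-/- sample (0.0568 and 0.0625). Ppef2, Krt18 and Ntng2 were not called in Crx-/- (0.08, 0.14 and -0.28). In CrxRip/+ at P2, Ppef2 was the 1 of 4 called lower (-0.62 ± 0.15 SE, adjusted p = 0.0218, limma), where 12.7% of all genes were called lower and 3.71% higher. It was not called when any 1 of the 4 samples was left out (adjusted p 0.0584 to 0.113) or after rescaling (0.0535), and Krt18 was called instead without CrxRip/+ replicate 2 (0.0284). With the replicate number as a block, Krt18 was called in addition (adjusted p = 0.0192).

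CrxRip/Rip was compared directly with Crx-/- at P2, in samples that did not enter the rule, after the values had been seen. Ppef2 (-1.72 ± 0.15 SE), Krt18 (-1.04 ± 0.16) and Ntng2 (-0.60 ± 0.14) were lower in CrxRip/Rip (adjusted p = 6.32e-05, 0.00164 and 0.0119, limma), 3 of 4 members, against 23.1% of all genes lower and 18.2% higher. Ppef2 and Krt18 had passed the authors' threshold in CrxRip/Rip against wild type at P2 (authors' log2 change -1.85 and -1.41). The count of 3 of 4 thus depends in part on how genes came to be listed. Ntng2 was not called without Crx-/- replicate 2 (adjusted p = 0.0700) or with only the 2 genotypes fitted (0.0592). Hk2 did not pass the test (0.14 ± 0.11 SE, adjusted p = 0.307). At P21 all 4 genes had a lower mean in CrxRip/Rip than in Crx-/-, with no overlap of samples.

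**Figure D4:**
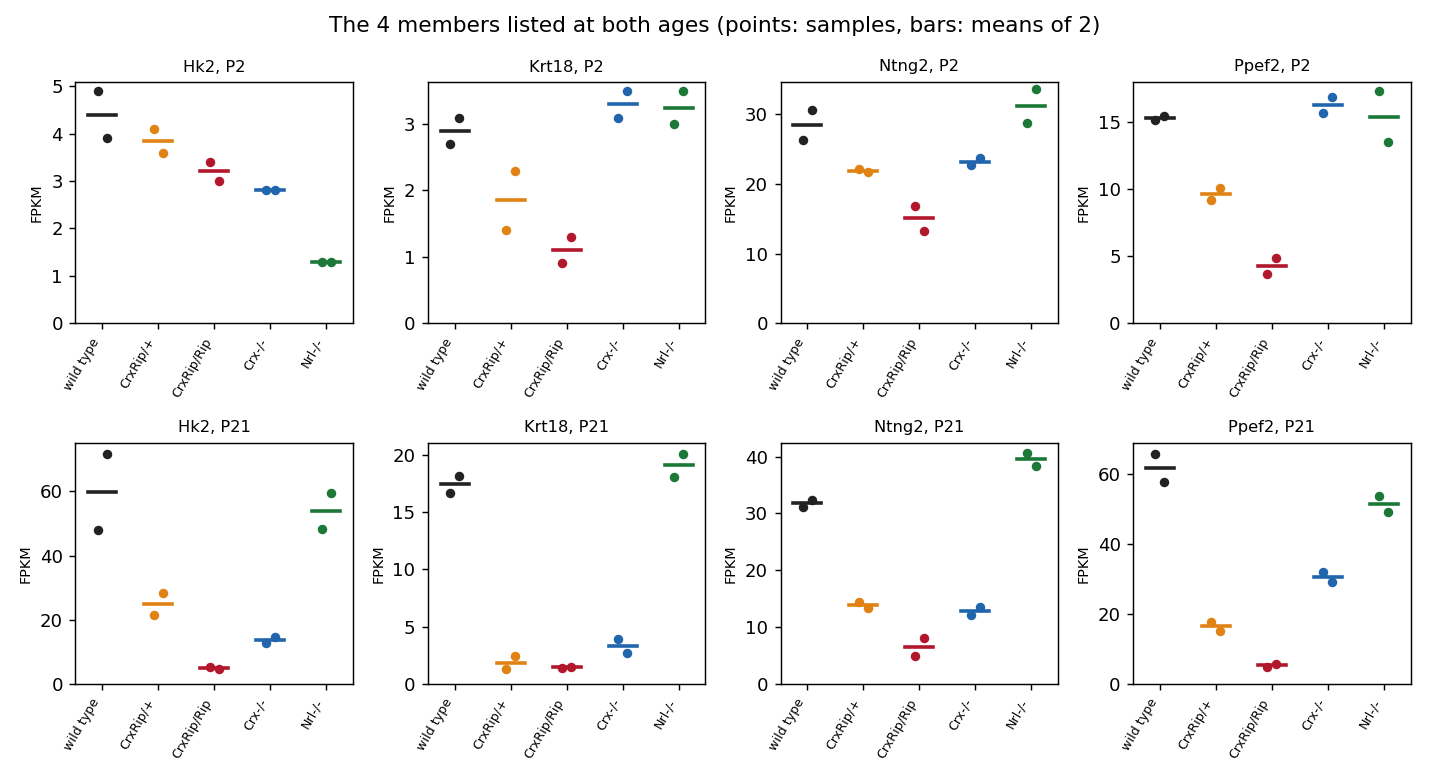
FPKM (y axes, linear from 0) of Hk2, Krt18, Ntng2 and Ppef2 in the 5 genotypes (x axes) at P2 (top) and P21 (bottom), with a point for each of the 2 samples and a bar for their mean. At P2 the CrxRip/Rip samples of Krt18, Ntng2 and Ppef2 are the lowest, Hk2 is lowest in Nrl-/-, and at P21 Nrl-/- stands near or above wild type in all 4 genes except Ppef2, where it is at 83.1%.

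Hand-written lists of other retinal genes did not all move the same way in CrxRip/+ at P21, where 35.0% of the table was lower, 39.5% higher and the median 0.13. All 18 rod genes were lower (median change -4.37). The shared photoreceptor genes were lower in 24 of 30 with 0 higher (median -1.53), and Crb1 is 1 of them. Genes of the ribbon synapse, where photoreceptors release transmitter, were lower in 8 of 12 with 0 higher (median -0.61), and those of the cilium and outer segment in 13 of 23 with 3 higher (median -0.54). Tulp1, a photoreceptor protein of ciliary transport, was at 273.3 and 255.5 FPKM in wild type and 255.9 and 274.5 in CrxRip/+. Its CrxRip/+ level overlapped wild type, as it did among the members in 1190005I06Rik, while Crx-/- was at 114 and 124.3 FPKM. Cone genes were mixed, with 4 lower and 7 higher of 15 (median 0.56), which is near the shares of the table. The 4 lower ones were Opn1sw, Opn1mw, Cnga3 and Arr3, with CrxRip/+ means at 0.69, 0.70, 5.48 and 7.12% of wild type. Photoreceptor transcription factors were lower in 6 and higher in 3 of 12 (median -0.70), and lipid genes lower in 4 and higher in 3 of 7 (median -1.27). The 3 melatonin and circadian genes in the table were lower (median -1.38).

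Markers of other cells were mixed in the same comparison, and many counts are near the shares of the table. Gliosis and stress genes were higher in 8 of 11 in CrxRip/+ (median 1.26), and their summed level was 54.4 to 55.1 FPKM in wild type, 92.4 to 171.9 in CrxRip/+, 174.4 to 204.6 in Crx-/-, 79.6 to 85.2 in CrxRip/Rip and 87 to 93.3 in Nrl-/-. Of the pigment epithelium genes, 3 of 6 were higher in CrxRip/+, with sums of 9.4 to 20.5 FPKM in wild type and 41.6 to 47.9 in CrxRip/+. The members Krt18 and Myrip, which that epithelium also expresses, were lower in CrxRip/+. The rule had chosen both for low levels in CrxRip/Rip and Crx-/-. Genes of bipolar cells, which also express Crx, were lower in 3 and higher in 2 of 8, with sums of 435.8 to 440.5 FPKM in wild type and 388.9 to 418.4 in CrxRip/+. Microglia and immune genes were higher in 3 of 3 (median 0.82), those of Müller glia higher in 2 and lower in 1 of 3, of horizontal cells higher in 1 of 4 and of vessels and blood higher in 1 of 6. The amacrine and ganglion cell lists had 0 genes in the table. The part of these cells in the members' values was not tested.

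The genes outside the set with the most similar profile were found by Pearson's r between log2(FPKM + 1) and the mean member profile over the 10 P21 samples. They were Glp2r (0.988), the receptor of glucagon-like peptide 2, Ppm1n (0.984), a protein phosphatase, Ier3 (0.982), an early response gene, Rtbdn (0.982), a retinal riboflavin-binding protein, and Rdh8 (0.980), the retinol dehydrogenase of outer segments. The same measure ran from 0.792 (1190005I06Rik) to 0.984 (Camk1g) over the members themselves. The samples are shared by all these values, r ignores the size of a change, and the rule used 8 of the 10 samples. Glp2r, for example, had a wild-type mean of 40.5 FPKM and fell far lower than most members, to 5.15 FPKM in CrxRip/+ and 0.9 in CrxRip/Rip. Of Glp2r, Ppm1n, Ier3, Rtbdn and Rdh8, none reached 0.8 times wild type in Nrl-/-, as the rule asks. Their means in Nrl-/- were 23.3, 11.95, 14.4, 111.2 and 40.3 FPKM, against 40.5, 21.15, 19.6, 155.85 and 64.8 in wild type.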

How the data were processed

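Whole-retina RNA was sequenced from 20 samples (5 genotypes, 2 ages, 2 samples each) as strand-specific TruSeq libraries, per the labels' protocols. The authors deposited FPKM per sample for each age, rounded to 1 decimal, with log2 fold changes and adjusted p-values of their own comparisons, per the file headers. The submitters' processing notes name DESeq. Not given in the sources used here: the aligner, genome build, annotation and the strand setting of counting. Genes were matched to RefSeq (GRCm38.p6) by transcript, 1485 of 1497 at P21 and 563 of 566 at P2, and Abhd14a by symbol.

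The members, roles and lists were chosen with earlier results of these data known. Each age was fitted with limma 3.58.1 (R 4.3.3) on log2(FPKM + 1) over its 10 samples, with 1 term per genotype, an intensity trend and Benjamini-Hochberg adjustment over the table, in 6 comparisons. An exact permutation test of 2 samples against 2 cannot go below a two-sided p of 0.333. The fit was tested on simulated data. Every member could be named, and a few values of other genes are not reported here. Sample values were planned for members at both ages, at the extremes and near the limits, and are also given for others. Same-numbered samples were not treated as pairs, since their deviations correlated at -0.24 to 0.33 (P2) and -0.30 to 0.24 (P21). Alternatives were another pseudocount (0.1), a filter (mean of at least 2 FPKM), rescaling, fewer genotypes, a replicate block and left-out samples.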

Additional observations from a re-analysis of the deposited data

Results flagged for a closer look

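Ppef2 samples of Crx-/- lay on opposite sides of wild type at the 2 ages, without a called change at P2. At P2 the mean in Crx-/- was 1.06 times wild type and both samples (15.7 and 16.9 FPKM) lay above both wild-type samples (15.2 and 15.5 FPKM), a difference that did not pass the limma test (0.08, adjusted p = 0.670). At P21 it was at 49.4% of wild type with both samples below. The difference between the ages was not tested, and the P21 level had entered the rule.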

How the results depend on the processing

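In CrxRip/+ at P21, 26 members were called lower, 29 with median-of-ratios rescaling and also in the authors' deposited table, 24 with only the 2 genotypes fitted and 19 to 24 with 1 sample left out. The number of genes that met the rule moved from 30 to 9 after rescaling and to 11 when every sample had to pass. With 1 sample left out it was 22 to 30. In CrxRip/+ at P2, 1 of 4 members was lower, 0 after rescaling, 2 with the replicate number as a block, 2 in the authors' deposited table, and 0 to 1 with 1 sample left out. In Crx-/- at P2 the 1 member became 0 to 1 with 1 sample left out. In Nrl-/- at P2, 0 members were higher and 3 after rescaling, where the change of Ppef2 turned from -0.01 to 1.00 (adjusted p = 6.10e-04, limma). The authors' deposited table called none of these 3 higher, and the rescaling factors were computed from the selected genes of each age. For these changes the cause was not tested. The replicate block left the counts of the other comparisons as they were, 26 at P21. A lone sample was assumed to vary like the other groups. Depth is unknown, and 2 samples per group limit the precision.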

Other observations

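Gckr, the regulatory protein of glucokinase, met every limit of the rule except the upper one in Nrl-/-. It averaged 14.1 FPKM in wild type and 57.2 in Nrl-/-, 4.07 times as much, but 1.45 in CrxRip/Rip and 3.75 in Crx-/-. By contrast, 171 genes met every limit except the lower one in Nrl-/-.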
